A study of Mus musculus with 6 samples.

Results

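The 9 genes described here encode enzymes that interconvert glutamate, aspartate, proline and malate, namely *Glud1*, *Got1*, *Got2*, *Gpt2*, *Me2*, *Me3*, *Aldh5a1*, *Aldh18a1* and *Pycr1*. They were taken by name, as 9 of the 25690 gene symbols with a quantified transcript, and all 9 passed the filter on low counts that left 15474 genes for the test. The names were chosen with the difference between the genotypes known, so their values, and how many of them passed a threshold, are given as a description that supports nothing. Their transcripts were measured by RNA-seq in CD27SP NK cells, the immature NK1.1+CD27+CD11b-CD3/19- fraction, sorted from mouse BM. In both genotypes the Cre recombinase is expressed from the *Ncr1* locus, which encodes the NK cell receptor NKp46, on a C57BL/6 background. *Ncr1cre Myc* wt/wt mice carry intact *Myc* alleles and are the controls, whereas *Ncr1cre Myc* fl/fl mice carry floxed *Myc* alleles that are deleted once a cell expresses NKp46. There were 3 libraries per genotype, numbered 1, 2 and 4 in each, from mice matched for sex and age. Cells that have not yet switched on *Ncr1* keep their *Myc* alleles, so the sorted fl/fl fraction can hold undeleted cells. The sources used here do not state that each library came from a separate mouse, and p-values therefore measure the spread between these libraries.

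Glutamate is the hub of these reactions. It is released from glutamine, and glutamate dehydrogenase (*Glud1*) or a transaminase (*Got1*, *Got2*, *Gpt2*) turns it into 2-oxoglutarate, an intermediate of the tricarboxylic acid cycle. The transaminases pass the amino group to oxaloacetate or pyruvate, which yields aspartate or alanine, and malic enzymes (*Me2*, *Me3*) convert malate to pyruvate in mitochondria. *Aldh18a1* and *Pycr1* act in the synthesis of proline from glutamate, and *Aldh5a1* oxidises succinic semialdehyde at the end of the GABA route. Myc is a transcription factor known to drive glutamine use in proliferating cells.

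The targeted gene was lower in every fl/fl library. *Myc* reached 200.5, 183 and 164 CPM (counts scaled to the library size, normalized by TMM) in wt/wt libraries 1, 2 and 4, against 61.5, 64.6 and 76.5 in fl/fl libraries 1, 2 and 4. The mean fell from 183 ± 18.1 to 67.5 ± 7.94 CPM (SD, n = 3 each), with a log2 fold change of −1.44 ± 0.15 (SE) and an adjusted p of 0.00189 in edgeR's quasi-likelihood test. *Myc* transcripts thus remained at 37.0% of the wt/wt level, and without replicate 1 the log2 fold change was −1.30, short of the threshold used here (an adjusted p below 0.01 with a log2 fold change of 0.5 or more in either direction).

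Libraries held between 8101219 and 64962491 estimated counts, and the shallowest was wt/wt library 1. Markers of NK cells summed to 12687–13326 CPM in wt/wt and 15241–17192 CPM in fl/fl libraries, led by *Nkg7*, and 0 of 11 passed the threshold. Markers of other BM cells summed to less than these in every library, and each list but that of T cells was higher in all fl/fl than in all wt/wt libraries. Basophil and mast cell markers summed to 12.6–15.97 CPM in wt/wt and 111–322 CPM in fl/fl libraries with 7 of 7 called higher, and neutrophil and progenitor markers summed to 85.4–140 and 538–897 CPM with 4 of 8 tested called higher. Monocyte and dendritic cell markers summed to 148–255 and 319–529 CPM (5 of 7 called higher), and erythroid markers to 43.8–280 and 537–1147 CPM (2 of 7 tested called higher). Platelet markers summed to 3.38–9.83 and 16.6–58.5 CPM (1 of 4 called higher), B cell markers to 4.16–7.74 and 10.7–13.9 CPM (0 of 4 tested called) and T cell markers to 227–473 and 237–317 CPM (0 of 5 called). Beside these counts, 1.28% of all tested genes were called higher and 0.872% lower. In the order given, the most abundant gene of each of these lists had wt/wt and fl/fl means of 2.83 and 128 (*Prss34*), 88.6 and 543 (*Mpo*), 194 and 345 (*Ly6c2*), 45.6 and 342 (*Hba-a2*), 2.79 and 15.7 (*Pf4*), 5.17 and 9.32 (*Cd79b*) and 120.2 and 109 CPM (*Cd3g*). No defining marker of these lists was at 0 in all libraries, and the part of such cells in the results below was not tested. In bulk RNA, fewer cells of a type and less RNA per cell cannot be told apart.

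Of the 9 enzymes, 2 passed the threshold as lower in fl/fl libraries, *Got2* and *Me3*, and 0 as higher. Among all tested genes, 0.872% were called lower and 1.28% higher. The 2 calls were made in edgeR's quasi-likelihood test, and 0 members were called higher at an unadjusted p below 0.05 (12.4% of all genes). DESeq2 called 3 members (*Got2*, *Me2* and *Me3*) lower and 0 higher, where it called 3.42% and 4.15% of all genes. At that unadjusted limit 6 members were lower, beside 10.2% of all genes. The 3 wt/wt libraries all lay above the 3 fl/fl libraries for 6 members (*Got1*, *Got2*, *Me2*, *Me3*, *Aldh5a1* and *Aldh18a1*; 15.1% of all genes), all lay below them for *Pycr1* (16.2% of all genes), and overlapped with them for *Glud1* and *Gpt2*. The median log2 fold change was −0.48 over the members, from −2.33 to 0.89, and 0.01 over all tested genes. The members were chosen on this contrast, and nothing is read from their counts against these backgrounds. The 2 calls also depended on the method and scaling, with 1 member (*Me3*) passing in limma-trend and where DESeq2, edgeR and limma-trend all had to pass (0.504% of all genes lower in each), and 0 with library size only (0.162%) or with offsets from effective lengths (0.0517%). They depended on which libraries entered the fit as well, while the fold changes stayed between −1.09 and −0.72 for *Got2* and between −2.87 and −2.05 for *Me3*. Without replicate 1, 0 members passed and 0.0636% of all genes were called lower, without replicate 2, 0 members (0.3% of all genes), without replicate 4, 1 member, *Me3* (0.735% of all genes), and without wt/wt library 1 alone in a fit without the block, 0 members (0.814% of all genes).

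**Figure D1:**
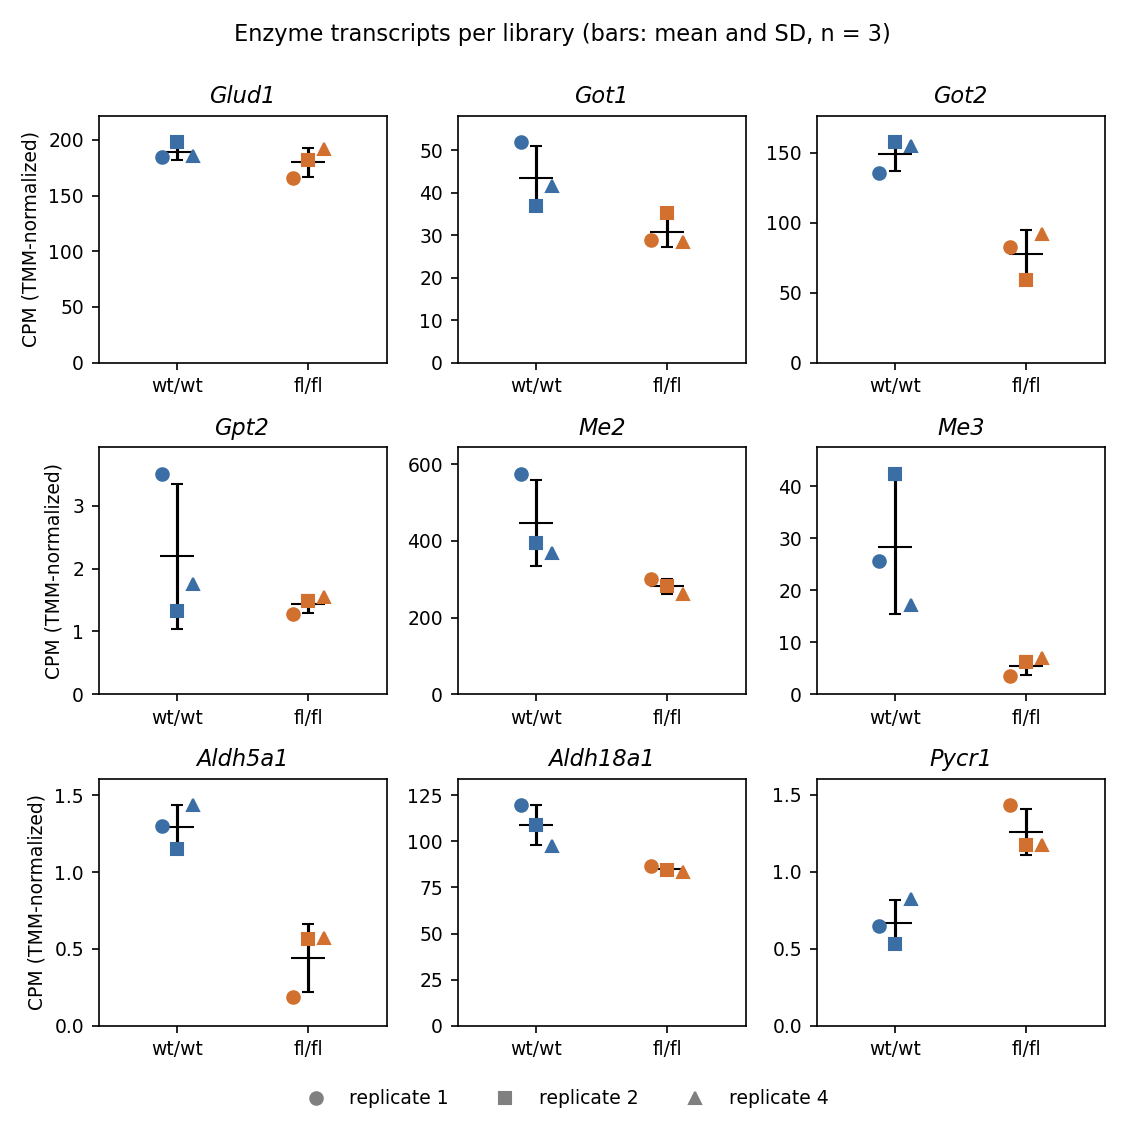
TMM-normalized CPM of each enzyme (vertical axes from 0, scaled to each gene) in the 3 Ncr1cre Myc wt/wt (blue) and 3 Ncr1cre Myc fl/fl (orange) libraries, with marker shape giving the replicate number and bars the mean and SD. The genotypes separate for 7 of the 9 enzymes, with Pycr1 the one that is higher in fl/fl, and overlap for Glud1 and Gpt2. Of all tested genes, 15.1% separate as lower and 16.2% as higher in fl/fl, and among the enzymes only Got2 and Me3 passed the threshold.

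*Glud1* (chr14:34310727-34345265, + strand, GRCm38) encodes mitochondrial glutamate dehydrogenase. It was measured at 185, 198 and 185 CPM in wt/wt and 166, 182 and 192 CPM in fl/fl libraries, so that the genotypes overlapped. Its mean was 189 ± 7.44 CPM in wt/wt and 179.9 ± 12.98 CPM in fl/fl, a log2 fold change of −0.07 ± 0.13. Of its counts, 97.1% ± 4.12 in wt/wt and 98.2% ± 0.957 in fl/fl lay on protein-coding transcripts. Its log2 fold change was the smallest in size among the members, except without replicate 1, where that of *Gpt2* was smaller.

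Among the transaminases, the mitochondrial aspartate enzyme *Got2* (chr8:95864134-95888547, − strand) was the one with the clearest separation. Its level was 136, 157 and 155 CPM in wt/wt and 82.9, 58.9 and 92.1 CPM in fl/fl libraries. The highest fl/fl library was below the lowest wt/wt library, and library 2 was the lowest in fl/fl. The mean fell from 149 ± 11.9 to 78.0 ± 17.1 CPM. In the fit, fl/fl was at 51.5% of wt/wt, a log2 fold change of −0.96 ± 0.17. The differences between libraries of equal number were −0.71, −1.42 and −0.75 on the log2 scale for numbers 1, 2 and 4, and without replicate 2 the fold change was −0.72.

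Its cytosolic counterpart *Got1* (chr19:43499752-43524605, − strand), which with *Got2* forms the aspartate side of the malate-aspartate shuttle, was measured at 51.8, 36.8 and 41.6 CPM in wt/wt and 28.9, 35.2 and 28.5 CPM in fl/fl libraries. The groups did not overlap, but wt/wt library 2 and fl/fl library 2 lay close together. The mean was 43.4 ± 7.67 CPM in wt/wt and 30.9 ± 3.75 CPM in fl/fl, a log2 fold change of −0.48 ± 0.18 that did not pass the threshold. Without replicate 1 it was −0.31 and without replicate 2 it was −0.68.

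The ratio of *Got2* to *Got1* within a library does not depend on the scaling between libraries. It was computed from TPM, a level per effective transcript length. Some deposited effective lengths exceed the transcript length, among them that of *Me3-207*, by a correction not given in the sources used here, which limits comparisons of TPM between genes. The ratio was 2.60, 3.58 and 2.96 in wt/wt and 2.34, 1.39 and 2.65 in fl/fl libraries. The genotypes overlapped, and the means of 3.05 ± 0.493 and 2.13 ± 0.656 differed by −0.56 on the log2 scale. This difference rested on replicate 2, without which it was −0.16.

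*Gpt2* (chr8:85492576-85527560, + strand), the mitochondrial alanine transaminase, was sparse, at 3.51, 1.33 and 1.76 CPM in wt/wt and 1.28, 1.48 and 1.54 CPM in fl/fl libraries. The high value came from wt/wt library 1, the shallowest, while wt/wt library 2 lay among the fl/fl libraries and wt/wt library 4 just above them. The log2 fold change of −0.46 ± 0.42 became −0.02 without replicate 1, so no difference in *Gpt2* was detectable at this depth.

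*Me2* (chr18:73769903-73815449, − strand), the mitochondrial malic enzyme that uses NAD+, was the most abundant member. It was measured at 575, 394 and 369.5 CPM in wt/wt and 299.7, 282 and 262 CPM in fl/fl libraries. Each wt/wt library lay above each fl/fl library, and library 1 of wt/wt stood well above the other two. The mean was 446 ± 112 CPM in wt/wt and 281 ± 18.6 CPM in fl/fl, which is 64.2% of wt/wt in the fit, with a log2 fold change of −0.64 ± 0.15. It did not pass the threshold in edgeR, but passed it in DESeq2 and without the filter on low counts (1.83% of all genes lower), and it was among 3 members, with *Got2* and *Me3*, at an adjusted p below 0.05 without a limit on the fold change (3.38% of all genes were lower at that limit). A single annotated transcript, *Me2-201*, held 100% of its counts.

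*Me3* (chr7:89632392-89854359, + strand), annotated as the mitochondrial malic enzyme that uses NADP+, had the largest fold change among the members. Its level was 25.6, 42.4 and 17.1 CPM in wt/wt and 3.40, 6.13 and 6.93 CPM in fl/fl libraries. The groups did not overlap, and the wt/wt libraries differed widely among themselves. The mean fell from 28.4 ± 12.9 to 5.49 ± 1.85 CPM. In the fit, fl/fl was at 19.9% of wt/wt, a log2 fold change of −2.33 ± 0.31. The differences were −2.91, −2.79 and −1.30 for the libraries numbered 1, 2 and 4. Over 13 alternative settings the log2 fold change ranged from −2.87 to −2.05.

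Nearly all of these counts were assigned to a transcript without an annotated coding frame. *Me3-207*, a processed transcript of 4 exons and 3036 bases (chr7:89632534-89643673), held 97.0%, 99.2% and 98.8% of the *Me3* counts in wt/wt and 90.9%, 96.0% and 94.6% in fl/fl libraries, with 95% Wilson intervals of 93.5–98.6% in wt/wt library 1 and 85.6–93.8% in fl/fl library 1. These intervals cover counting error only. *Me3-207* ends inside the first intron, 103.5 kb long, of *Me3-202*, the only transcript of the gene annotated as protein coding, which has 14 exons over 221.7 kb and 1812 coding bases.

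The exon that both transcripts use and the exon that only *Me3-207* uses show how the counts separate, and are printed here from the GRCm38 genome. The first is the coding part of the shared exon (chr7:89632911-89633093, + strand), with the start codon of *Me3-202* in capitals. The second is the third exon of *Me3-207* (chr7:89639191-89639345, + strand), which lies in no other annotated transcript of *Me3*.
Shared exon: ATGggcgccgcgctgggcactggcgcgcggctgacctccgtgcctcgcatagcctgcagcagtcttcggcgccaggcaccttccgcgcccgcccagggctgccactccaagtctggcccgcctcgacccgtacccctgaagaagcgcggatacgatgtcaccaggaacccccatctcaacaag
Exon 3 of Me3-207: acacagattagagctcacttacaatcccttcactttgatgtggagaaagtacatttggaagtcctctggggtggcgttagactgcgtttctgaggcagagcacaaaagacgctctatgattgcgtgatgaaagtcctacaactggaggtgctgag

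The shared exon gives *Me3-207* 198 bases in common with *Me3-202*, 6.52% of its length, of which 183 are coding. The fourth exon of *Me3-207*, 2647 bases long, likewise lies in no other annotated *Me3* transcript. Both of these exons lie within the first intron of *Me3-202*. An antisense gene, *A230065N10Rik* (chr7:89632097-89633124), overlaps 234 bases of *Me3-207*, or 7.71%, and the library kit does not mark strand, so reads there cannot be told apart.

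Split by transcript, *Me3-207* reached 23.6, 43.0 and 17.1 CPM of the library total, without TMM, in wt/wt and 3.13, 5.88 and 6.51 in fl/fl libraries, with means of 27.9 ± 13.5 and 5.18 ± 1.80. The genotypes did not overlap. All other *Me3* transcripts together reached 0.736, 0.336 and 0.205 CPM in wt/wt and 0.314, 0.248 and 0.372 in fl/fl libraries, and these groups overlapped. The coding *Me3-202* was assigned 0, 3.01 and 2.14 estimated counts in wt/wt and 3.005, 4.45 and 1.005 in fl/fl libraries. In wt/wt library 1 a count of 0 allows up to 0.370 CPM (3 counts), so a difference in coding *Me3* was not detectable at this depth. The split by transcript was chosen after the data were seen.

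**Figure D2:**
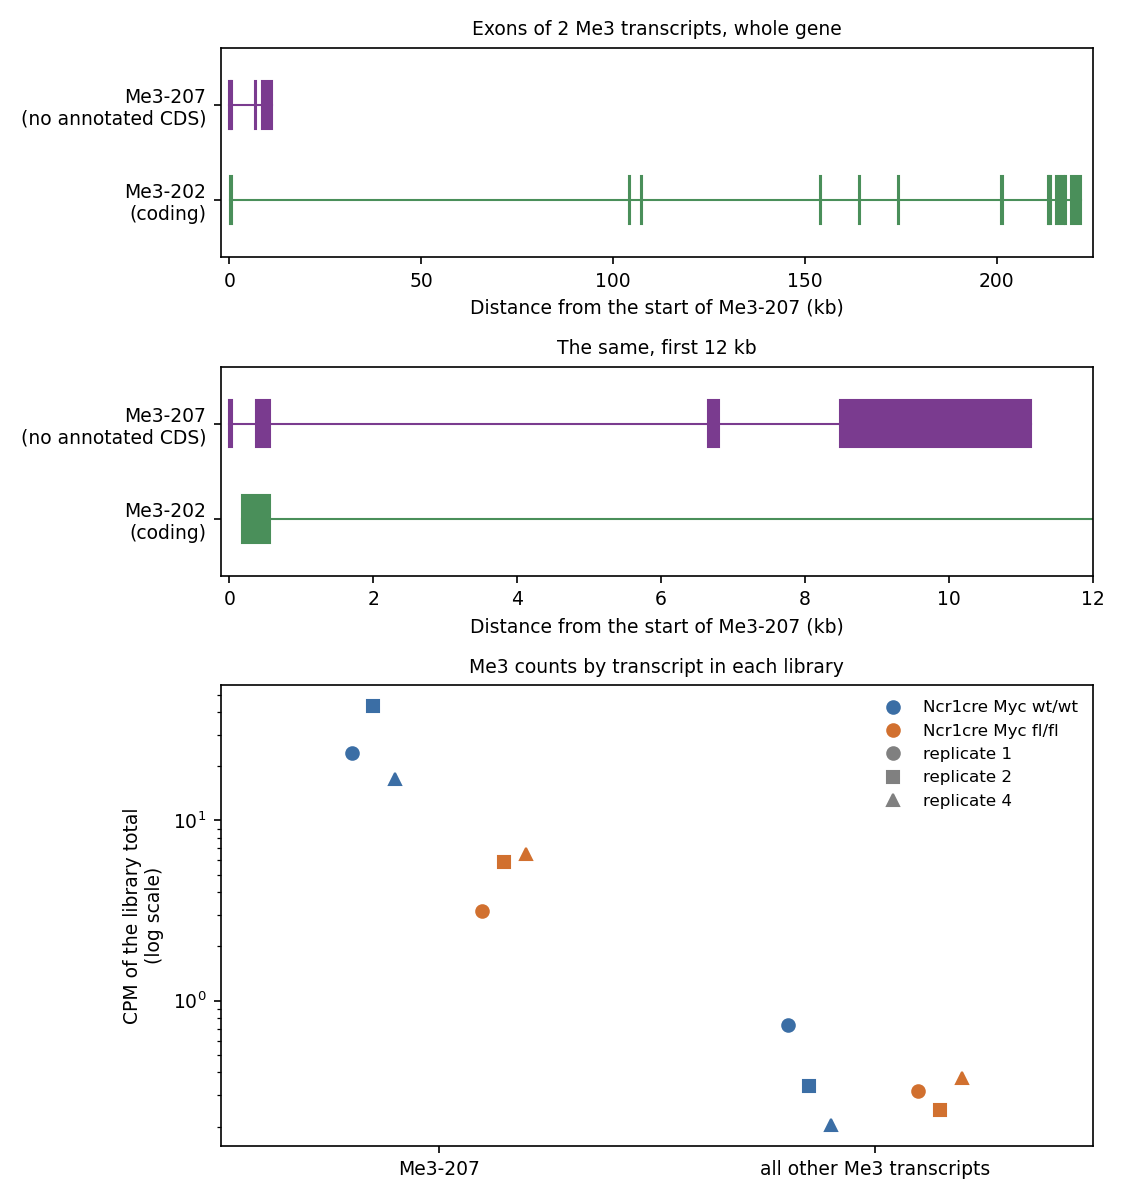
Exons of Me3-207 and Me3-202 over the whole gene and over its first 12 kb, drawn by distance from the start of Me3-207 in kb (exons too short to show in the whole-gene map are drawn at a minimum line width), and CPM of the library total (log axis) on Me3-207 and on all other Me3 transcripts in each library. The wt/wt and fl/fl libraries separate for Me3-207, at 17.1–43.0 against 3.13–6.51, and overlap for the other transcripts.

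The ratio of *Me3* to *Me2* in TPM was 0.0339, 0.0796 and 0.0340 in wt/wt and 0.00822, 0.0158 and 0.0197 in fl/fl libraries. All wt/wt ratios lay above all fl/fl ratios, with a difference of −1.72 on the log2 scale. The highest ratio was that of wt/wt library 2, where 99.2% of the *Me3* counts lay on *Me3-207*. These are ratios of gene totals, not of coding transcripts.

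*Aldh5a1* (chr13:24907579-24937661, − strand), succinic semialdehyde dehydrogenase, had the lowest gene total per length among the members. It was measured at 1.30, 1.15 and 1.44 CPM in wt/wt and 0.187, 0.567 and 0.569 CPM in fl/fl libraries, from 10 to 94 estimated counts in wt/wt and from 11 to 34 in fl/fl libraries. The genotypes did not overlap. The mean was 1.30 ± 0.142 CPM in wt/wt and 0.441 ± 0.220 CPM in fl/fl, 33.2% of wt/wt in the fit, with a log2 fold change of −1.59 ± 0.51. Although larger than that of *Got2*, this difference did not pass the threshold, and its SE was the largest among the members.

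In proline synthesis, *Aldh18a1* and *Pycr1* differed in direction. *Aldh18a1* (chr19:40550257-40588463, − strand) encodes the enzyme of the first steps from glutamate, pyrroline-5-carboxylate synthase. It reached 119.5, 109 and 97.6 CPM in wt/wt and 86.4, 84.3 and 83.6 CPM in fl/fl libraries. The fl/fl libraries lay close together below all wt/wt libraries, with means of 109 ± 10.9 and 84.8 ± 1.45 CPM and a log2 fold change of −0.35 ± 0.13. The change did not pass the threshold, and its size was below the 0.5 required. The coding transcripts *Aldh18a1-201* and *Aldh18a1-207* held 67.6% ± 6.0 and 28.6% of its counts in wt/wt, and 70.2% ± 6.6 and 26.8% in fl/fl. Taken from TPM, the share of *Aldh18a1-201* was lower, at 48.3% in wt/wt and 52.5% in fl/fl.

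*Pycr1* (chr11:120635712-120643769, − strand), a pyrroline-5-carboxylate reductase that completes proline, was the one member with a positive fold change. It was measured at 0.650, 0.532 and 0.824 CPM in wt/wt and 1.43, 1.17 and 1.17 CPM in fl/fl libraries. The groups did not overlap, but the wt/wt values rest on 5, 30.4 and 54.2 estimated counts. The mean was 0.669 ± 0.147 CPM in wt/wt and 1.26 ± 0.149 CPM in fl/fl, with a log2 fold change of 0.89 ± 0.43 that did not pass the threshold.

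Promoter windows of 8 of the 9 members, from 250 bases before to 50 bases after the start, were read from RefSeq (GRCm38.p6), and *Me2* was not among them. They were searched on both strands for the E-box CACGTG, a Myc recognition motif, and for TTGCATCA (TGATGCAA on the other strand), the core of the element bound by ATF4, a factor known to act on amino acid synthesis genes. Matches were found in 3 members, and the surrounding 100 bases are shown with the match in capitals because these are the windows in which either motif occurs. The first holds the E-box and the other 2 hold the ATF4 core.
Aldh18a1 (chr19:40588469-40588568, − strand): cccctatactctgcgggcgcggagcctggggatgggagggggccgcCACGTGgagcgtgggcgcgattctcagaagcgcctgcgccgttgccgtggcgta
Got1 (chr19:43524654-43524753, − strand): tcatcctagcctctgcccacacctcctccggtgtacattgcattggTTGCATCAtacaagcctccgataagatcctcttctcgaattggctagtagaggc
Pycr1 (chr11:120643798-120643897, − strand): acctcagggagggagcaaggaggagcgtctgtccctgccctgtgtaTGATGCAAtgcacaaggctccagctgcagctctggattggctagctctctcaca

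The match lies 59 to 54 bases before the start in *Aldh18a1*, 102 to 95 in *Got1* and 103 to 96 in *Pycr1*. Of 32851 mouse promoter windows of the same length, 7.15% hold CACGTG and 0.895% hold the ATF4 core. The windows of *Glud1*, *Got2*, *Gpt2*, *Me3* and *Aldh5a1* hold neither set of letters. The *Me3* window (chr7:89632568-89632867) begins inside *Me3-207*, so the bases before the start of that transcript were not searched. The log2 fold changes of *Aldh18a1* (−0.35), *Got1* (−0.48) and *Pycr1* (0.89) did not pass the threshold, and a part of either factor was not tested. A match describes the sequence and is not evidence of binding in these cells.

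Levels between genes were compared in TPM. In wt/wt libraries the order was *Me2* (238 ± 50.7), *Got2* (97.5 ± 5.42), *Glud1* (83.7 ± 10.2), *Aldh18a1* (64.1 ± 12.6), *Got1* (32.4 ± 3.56), *Me3* (11.5 ± 5.62), *Gpt2* (1.11 ± 0.702), *Pycr1* (0.525 ± 0.114) and *Aldh5a1* (0.298 ± 0.0278). The libraries of neighbours overlapped for *Got2* with *Glud1* and for *Glud1* with *Aldh18a1*, and not for the other neighbours. In fl/fl libraries *Glud1* (81.7 ± 4.12) stood above *Got2* (53.2 ± 12.1) and *Pycr1* (1.09 ± 0.0874) above *Gpt2* (0.687 ± 0.0750), while *Got2* overlapped with *Aldh18a1* (51.8 ± 6.89). The mitochondrial *Got2* was above the cytosolic *Got1* in every library. The rank of *Me3* holds for the gene total only. Its coding transcript *Me3-202* was at 0, 0.0158 and 0.00917 TPM in wt/wt and 0.0156, 0.0240 and 0.00503 TPM in fl/fl libraries. These values lay below *Aldh5a1* in every library.

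**Figure D3:**
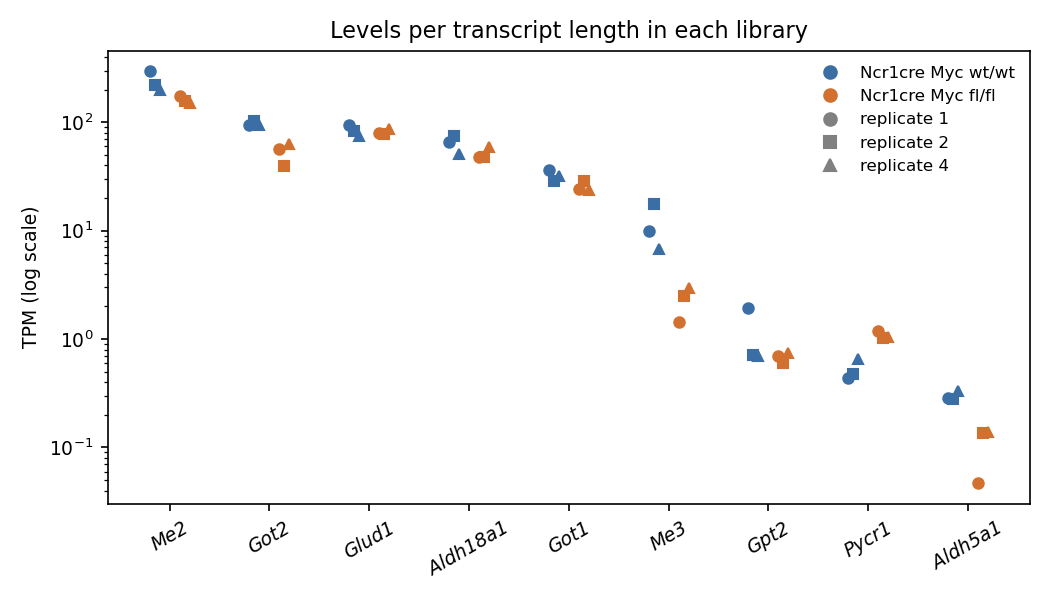
TPM of each enzyme (log axis) in every library, ordered by the mean of the 3 Ncr1cre Myc wt/wt libraries, with colour giving the genotype and marker shape the replicate number. Me2 lies highest, between 149 and 295, and Aldh5a1 lowest, between 0.0469 and 0.330, and the TPM of Got2 in fl/fl falls below that of Glud1. Values are gene totals, and that of Me3 lies almost wholly on Me3-207, which has no annotated coding frame.

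Paralogues of the members were read beside them. *Gpt*, the other alanine transaminase, was measured at 3.49 ± 0.394 TPM in wt/wt and 3.91 ± 0.506 TPM in fl/fl, above *Gpt2* in both. *Pycr3* (annotated as *Pycrl*) was at 50.6 ± 2.17 TPM in wt/wt and 36.6 ± 1.39 TPM in fl/fl, above *Pycr1* in both. *Gpt* (log2 fold change 0.04 ± 0.28, adjusted p = 0.959 in edgeR) did not pass the threshold, and its sign turned when replicate 2 was left out. *Pycr3* had a log2 fold change of −0.59 ± 0.16 with an adjusted p of 0.0492 in edgeR, which does not pass. The cytosolic malic enzyme *Me1* had between 0 and 8 counts in a library and was not tested, and *Got1l1* was at 0 in all libraries.

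The wider pathway was read from a list of 57 further genes chosen by function, of which 45 were tested. Of these, 1 was called higher and 1 lower in edgeR's quasi-likelihood test, where 1.28% and 0.872% of all tested genes were. The median log2 fold change was −0.0046, with 23 genes negative and 22 positive, beside 7512 negative and 7962 positive of all 15474 tested genes. Calls were few in each role: 1 higher and 0 lower of 10 tested in glutamine and amide nitrogen use, 0 higher and 1 lower of 4 among other glutamate transaminases, and 0 in either direction of 13 for malate, aspartate and their carriers, 8 for proline and ornithine, 5 for GABA and 2-oxoglutarate side routes and 5 for glutathione.

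The gene that rose was *Asns*, asparagine synthetase, which uses aspartate and glutamine. It was measured at 3.12, 2.22 and 3.28 CPM in wt/wt and 11.9, 11.3 and 15.4 CPM in fl/fl libraries, with no overlap. The log2 fold change was 2.19 ± 0.24 (adjusted p = 0.00204 in edgeR), and it passed in each fit that left out 1 replicate but not with effective length offsets. The gene that fell was *Psat1*, the phosphoserine aminotransferase, which turns glutamate into 2-oxoglutarate in serine synthesis. It reached 149.9, 117 and 115 CPM in wt/wt and 54.0, 58.8 and 70.1 CPM in fl/fl libraries, and wt/wt library 1 was the highest. Its log2 fold change was −1.06 ± 0.17 (adjusted p = 0.00671 in edgeR), and it no longer passed without replicate 1 (−0.85) or without replicate 2 (−1.08), in limma-trend, with library size only or with effective length offsets.

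A further 3 listed genes lay between the adjusted p limits of 0.01 and 0.05 in edgeR and did not pass. They were *Prodh*, the proline dehydrogenase (−0.79 ± 0.20, adjusted p = 0.0416), *Oplah*, the 5-oxoprolinase of the glutathione cycle (1.04 ± 0.23, adjusted p = 0.0271), and *Pycr3*. Groups did not overlap for 8 of the 45 tested genes on the lower side and for 9 on the higher side, beside 15.1% and 16.2% of all genes. The malate dehydrogenases *Mdh1* and *Mdh2* had log2 fold changes of −0.26 and −0.28, and the argininosuccinate synthase *Ass1* of 0.97. None of these 3 passed the threshold.

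**Figure D4:**
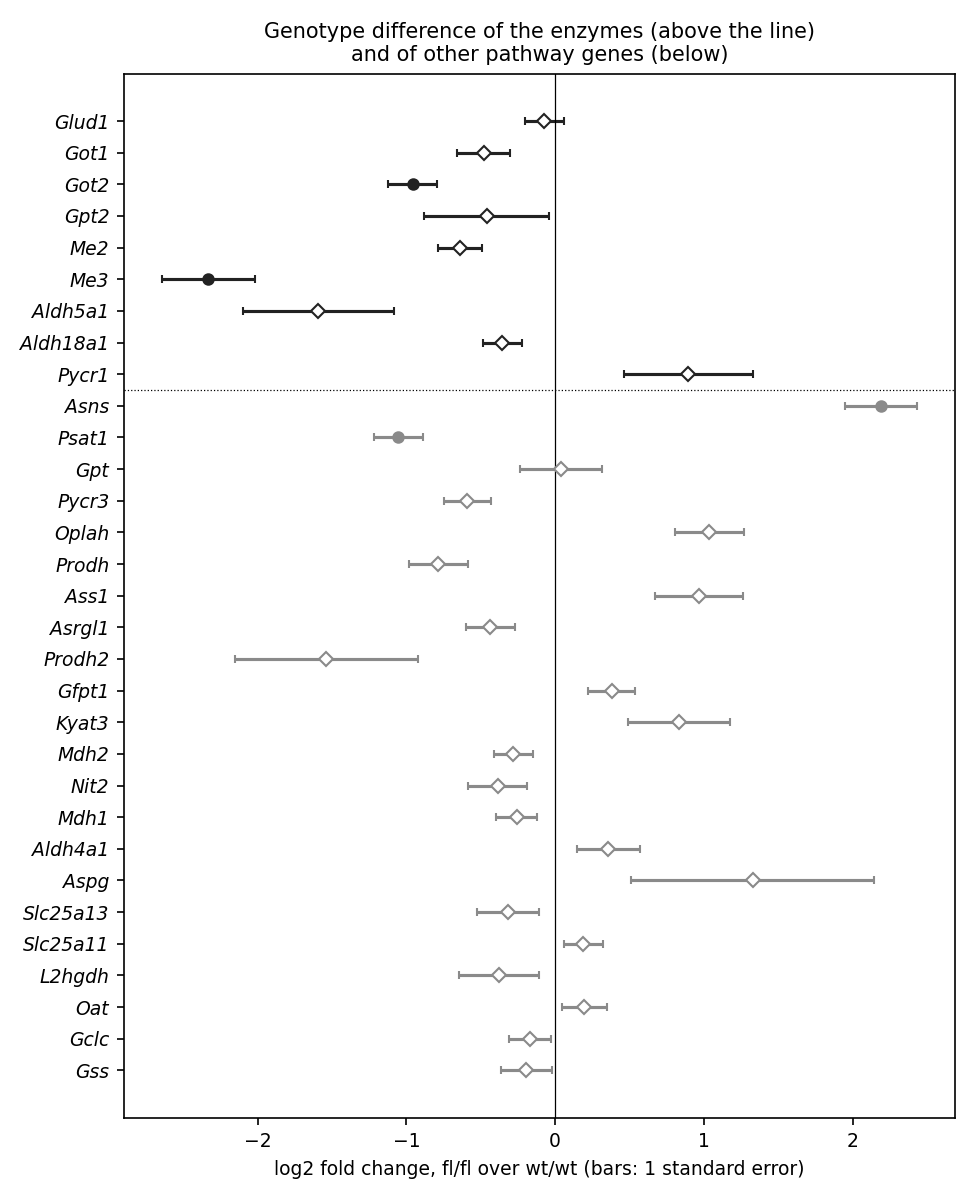
Log2 fold change of fl/fl over wt/wt (horizontal axis, bars 1 SE, n = 3 libraries per genotype) for the 9 enzymes above the dotted line and for other pathway genes below it. Filled circles passed the threshold (Got2, Me3, Asns and Psat1) and open diamonds did not. Of the 9 enzymes, which were chosen on this contrast, 8 lie left of 0, beside 7512 of all 15474 tested genes.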

How the data were processed

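The authors sorted CD27SP NK cells from BM, prepared libraries with a SMART-Seq v4 polyA kit and sequenced them single end. The methods name Salmon and GRCh38, whereas the deposited tables carry mouse transcript identifiers and the columns of kallisto, so how they were made is uncertain. Per the file headers, each table of 1 library holds an estimated count and a TPM value for each of 100583 transcripts. The authors' estimated counts are not normalized, and the deposited TPM values are scaled per length to a fixed total. Depth was 8101219 to 64962491 estimated counts.

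Estimated counts were summed by symbol through GENCODE M21 (GRCm38; 100239 transcripts matched, the others holding 0.129–0.169% of counts) and rounded. Genes were filtered by filterByExpr, scaled by TMM and tested with edgeR 4.0.16 (quasi-likelihood, R 4.3.3), the replicate number entering as a block, and p-values were adjusted by Benjamini-Hochberg over all 15474 tested genes. SEs were taken from the fold change and the F statistic. The limit was an adjusted p below 0.01 with a log2 fold change of 0.5 or more in either direction. DESeq2 1.42.0 and limma 3.58.1 were alternatives, beside other scalings, filters and left-out replicates. The code was tested on simulated data. The *Got2* and *Glud1* pseudogenes were not analysed here, and reads shared with them are uncertain.

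The members, the wider list and the marker lists were chosen with earlier results of these data known. Named were all members, *Myc*, listed genes past the threshold, the members' paralogues, up to 20 further listed genes by p, 3 genes most like each of the 2 members with the largest fold changes, and the most abundant gene of each marker list. Some genes that this rule would name are not reported here. The authors describe their differential expression as paired, hence the block. Whether equal numbers pair the libraries was checked by correlating their deviations from the genotype means over 15474 genes. The correlations were −0.0116, −0.0308 and 0.0622 for numbers 1, 2 and 4, under the limit of 0.1, so pairing of the libraries by number is not shown.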

Additional observations from a re-analysis of the deposited data

How the results depend on the processing

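No member changed sign under any of the alternatives run. The number of members past the threshold, 2 as reported, was 0 to 1 when a replicate was left out, 0 without wt/wt library 1 alone in a fit without the block, 1 in limma-trend, 1 (*Me3*) where DESeq2, edgeR and limma-trend all had to pass, 0 with library size only, 0 with offsets from effective lengths, and 1 with at least 10 counts in every library. It was 3 in DESeq2 and 3 without the filter on low counts. The number of wider pathway genes past the threshold, 2 as reported, was 1 to 2 when a replicate was left out, 5 in DESeq2, 1 in limma-trend, 1 where all 3 methods had to pass, 1 with library size only, 0 with effective length offsets, and 5 at an adjusted p below 0.05 with no fold change limit. Without the replicate block both numbers were 2, where 1.19% of all genes were called lower and 1.31% higher. The share of all genes called lower was 0.872% as reported, 3.42% in DESeq2, 0.504% in limma-trend, 0.162% with library size only, 0.0517% with effective length offsets, and 1.17% with at least 10 counts in every library. The share called higher was 1.28% as reported, 0.312% to 1.04% when a replicate was left out, 4.15% in DESeq2, 0.931% in limma-trend, 0.317% with library size only, 0.155% with effective length offsets and 4.45% at an adjusted p below 0.05. *Myc* was at −1.30 to −1.62 when a replicate was left out, and short of the threshold at −1.30, without replicate 1. The log2 difference of the *Got2* to *Got1* ratio ran from −0.76 to −0.16 over the left-out replicates. The small value of *Gpt* changed sign (−0.0199 to 0.11 over left-out replicates). Low estimated counts limit *Gpt2*, *Aldh5a1*, *Pycr1* and the coding *Me3* transcript.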

Other observations

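Of the 2 members with the largest absolute fold changes, *Me3* was closest in pattern to *Atpaf2* (Pearson r = 0.999), *Bop1* (0.998) and *Cops7a* (0.997), over the log2 CPM of the 6 libraries, and *Aldh5a1* to *Eif1a* (0.997), *Nol12* (0.996) and *Tma16* (0.994). With 6 libraries that share the genotype difference, 98 genes reached an r of 0.95 with *Me3* and 82 with *Aldh5a1*, so these names are a description. Among other transcripts of the members, the retained-intron *Got2-204* held 7.32% ± 1.45 of *Got2* counts in wt/wt and 9.59% ± 3.75 in fl/fl libraries.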
